A study of Mus musculus with 24 samples.

Results

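The genes described here are 5 regulators of the cell cycle and its checkpoints, Wee1, Cdkn1a, Gadd45a, Myc and Ccnd1, chosen by name from the 54733 genes listed in RNA-seq data of mouse liver. Each was measured in all 24 libraries, was above 0 in each of them and passed the filter on low values, a mean of at least 1 FPKM (fragments mapped to a gene, scaled by transcript length and library size), as did 11244 genes in all. Poly(A) RNA came from livers of adult male C57BL/6 mice kept with free access to chow and released into constant darkness. The wild-type (WT) group was compared with ΔRRE mutants, whose Bmal1 gene (listed as Arntl) lacks both RREs, the elements through which REV-ERB and ROR nuclear receptors act, on both alleles. The deletion was made by CRISPR-Cas9 in embryos, so it is present in every cell and not in the liver alone. Per the study's methods the mutants were of line #1 unless stated otherwise. Each genotype had 2 libraries at each of 6 projected circadian times (CT), CT2, CT6, CT10, CT14, CT18 and CT22, where CT0 is the start of the subjective day. The sources do not say beyond the stated number of replicates that each library came from a separate animal, so p-values measure the spread between these libraries.

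Progress through the cell cycle is driven by cyclin-dependent kinases (CDKs). Cyclin D1, the product of Ccnd1, activates CDK4 and CDK6 in G1, MYC drives growth and S-phase genes, p21 (Cdkn1a) inhibits cyclin-CDK complexes, and WEE1 holds CDK1 inactive before mitosis by phosphorylating it. GADD45A is a stress-induced protein that binds p21 and PCNA. The liver clock is known to reach several of these genes. CLOCK-BMAL1 activates Wee1 through E-boxes, and REV-ERBα represses Cdkn1a, also a classical target of p53. Most hepatocytes of the adult liver are quiescent, so these transcripts are mostly read in cells that are not dividing.

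In the GENCODE M21 annotation of GRCm38 the genes lie at chr7:110122046-110143286 on the plus strand (Wee1), chr17:29090976-29100727 on the plus strand (Cdkn1a), chr6:67035096-67037457 on the minus strand (Gadd45a), chr15:61985391-61990374 on the plus strand (Myc) and chr7:144929931-144939925 on the minus strand (Ccnd1). All 5 are protein-coding. RefSeq promoter windows (GRCm38.p6, 250 bases before each start) were matched for 2 of them, Cdkn1a with 2 starts and Gadd45a with 1. None of these 3 windows held the E-box CACGTG, the RRE core AGGTCA, the D-box TTATGTAA or the cAMP response element TGACGTCA on either strand, motifs found in 6.02%, 14.0%, 0.819% and 1.55% of all 32851 windows. A pair of further motifs was searched after the sequences had been seen. The p53 core motif CATGNNNNNNCATG, held by 0.49% of all windows, begins 48 bases before the first start of Cdkn1a, and the octamer ATGCAAAT, held by 1.6%, occurs in Gadd45a, once on each strand, 97 and 70 bases before its start. The stretches outside annotated exons, chr17:29090729-29090975 on the plus strand and chr6:67037458-67037657 on the minus strand, are shown 5′ to 3′ with these matches in capitals. They are shown because Cdkn1a and Gadd45a were the only 2 of the 5 genes with a matched window. The window of the other start of Cdkn1a, chr17:29093519-29093768, lies downstream and held neither of these further motifs. It begins in an annotated exon and is not shown.
Cdkn1a: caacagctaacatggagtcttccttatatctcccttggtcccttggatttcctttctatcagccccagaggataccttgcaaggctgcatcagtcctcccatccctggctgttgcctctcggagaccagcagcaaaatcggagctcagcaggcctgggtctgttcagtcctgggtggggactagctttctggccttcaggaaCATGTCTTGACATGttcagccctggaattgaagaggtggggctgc
Gadd45a: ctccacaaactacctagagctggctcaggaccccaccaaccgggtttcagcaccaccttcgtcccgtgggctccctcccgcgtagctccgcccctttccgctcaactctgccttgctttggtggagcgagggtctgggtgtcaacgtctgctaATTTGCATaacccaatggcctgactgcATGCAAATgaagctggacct
A match describes these letters only and shows no binding in these livers.

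Of the series as a whole, the check of the genotype was Arntl, which followed a 24 h wave in WT with an amplitude of 2.57 ± 0.31 (SE, log2 scale) and had an amplitude of 0.29 ± 0.09 in ΔRRE, the single gene of 11244 called for a difference in rhythm (limma, adjusted p = 0.0463). That call lies close to the threshold. No gene was called for it when any of 19 of the 24 libraries was left out. The same held in 10 of 14 other settings, among them a constant of 0.01 FPKM and no filter. A genotype by time interaction, which takes time as a factor in place of the wave, was also tested. It called Arntl far from the threshold (limma, adjusted p = 1.2e-05). Every library had the 5 hepatocyte markers. Summed FPKM of marker lists overlapped between WT and ΔRRE for Kupffer cells and macrophages (9.98 to 71.8 and 20.1 to 51.0), stellate cells and fibroblasts (31.0 to 77.4 and 32.4 to 70.1), endothelial cells (21.3 to 45.6 and 23.1 to 40.7), cholangiocytes (20.2 to 42.1 and 11.8 to 44.1), lymphocytes and other leukocytes (0.36 to 3.02 and 0.52 to 2.86), neutrophils (0.18 to 6.76 and 0.48 to 12.1) and erythroid cells (314 to 977 and 350 to 2819). Of the neutrophil markers, Ly6g was listed at 0 in 22 libraries and Retnlg in 14. Of the 24 libraries, 3 had the highest sum of a response list. WT CT6 replicate 1 had the highest immediate-early genes (155 FPKM), Kupffer markers and proliferation markers (59.4 FPKM). ΔRRE CT10 replicate 1 had the highest glucocorticoid and stress genes (2584 FPKM), and ΔRRE CT14 replicate 1 the highest acute-phase genes (9550 FPKM), neutrophil and erythroid markers. Such sums weigh genes of high FPKM most and need not describe the rest of a list. In ΔRRE the metallothionein genes Mt1 and Mt2 of the stress list reached 1536 and 695 FPKM. Of the erythroid markers there, Hbb-bs reached 1698, Hba-a1 1085 and Alas2 58.8. The Kupffer marker Marco reached 39.0 in WT, where its median was 4.36. In bulk liver, fewer cells of a type and less RNA per cell cannot be told apart.

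The first question was which of the 5 transcripts followed the time of day. Wee1, Cdkn1a and Ccnd1 were rhythmic in WT liver and Gadd45a and Myc were not called by a 24 h wave. Wee1 peaked at the start of the subjective night, Ccnd1 late in the subjective day and Cdkn1a at the end of the subjective night. A cosine wave of 24 h, fitted by limma to log2(FPKM + 0.1) and called at an adjusted p under 0.05 over all genes tested, called 3 of the 5 genes in WT against 10.3% of all genes. In ΔRRE it called 1 of the 5, Wee1, against 4.57% of all genes. In a fit of both genotypes together it called Wee1, Cdkn1a and Ccnd1 again, against 18.7% of genes. That test asks whether there is a wave in either genotype, so a wave in WT alone can pass it. A joint rhythm is therefore no call of a rhythm in each genotype. By the study's 3 criteria, which set a looser p limit beside a peak to trough ratio and a limit on the SD, with the p of this wave in place of the study's rhythm program, the same 3 genes passed in WT, where 37% of all genes did, and in ΔRRE, where 35.4% did. Without the 3 libraries named above the counts were again 3 in WT, 1 in ΔRRE and 3 jointly.

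**Figure D1:**
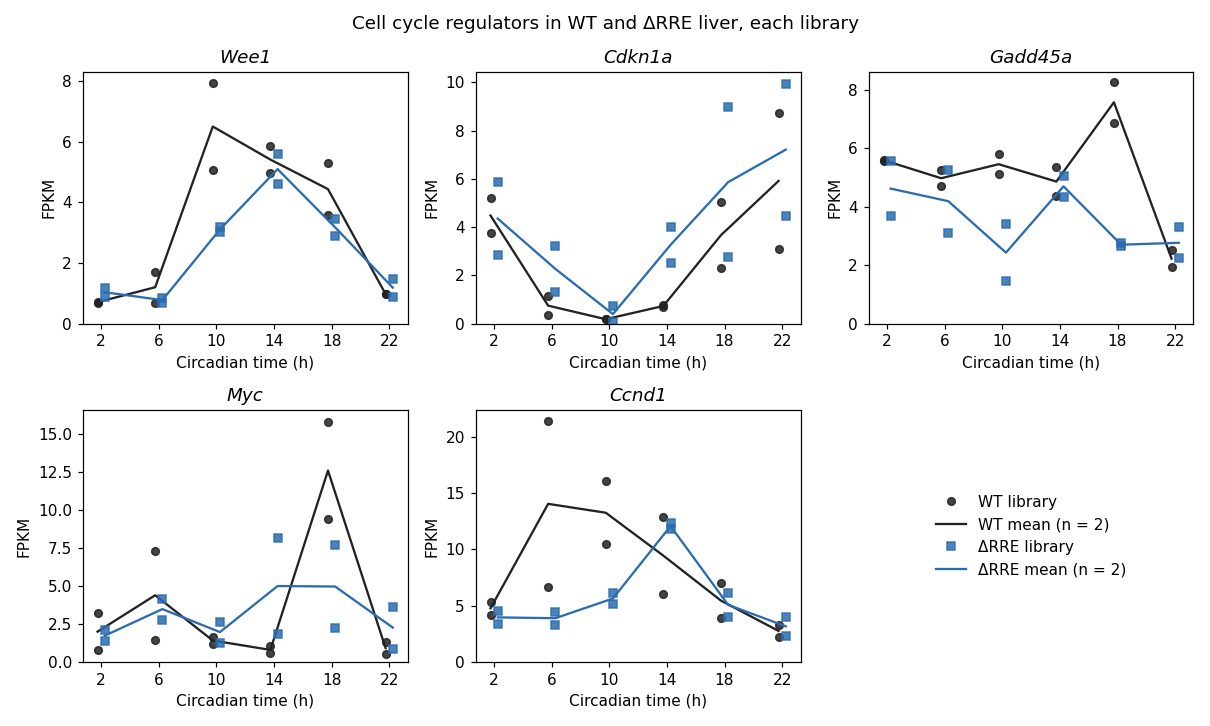
FPKM (vertical axis, from 0) of the 5 genes against circadian time in hours. Circles are WT libraries, squares are ΔRRE libraries and lines join the means of 2 libraries. Wee1 is high from CT10 to CT18 in WT, Cdkn1a is lowest at CT10 in both genotypes, and Gadd45a and Myc stand highest at CT18 in WT. In ΔRRE Gadd45a does not, and the Myc means at CT14 and CT18 are about equal (4.99 and 4.96 FPKM).

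Wee1, the mitotic inhibitor, had the smallest p for a joint rhythm of the 5 genes. In WT its levels were 0.694 and 0.724 FPKM at CT2, 1.72 and 0.683 at CT6, 7.94 and 5.06 at CT10, 5.85 and 4.98 at CT14, 3.58 and 5.29 at CT18, and 0.965 and 0.987 at CT22. All 6 libraries from CT10 to CT18 lay above all 6 from CT22 to CT6, and within the high set the time points overlapped their neighbours. In ΔRRE its levels were 0.894 and 1.18 FPKM at CT2, 0.856 and 0.697 at CT6, 3.04 and 3.18 at CT10, 4.61 and 5.58 at CT14, 2.89 and 3.46 at CT18, and 0.887 and 1.49 at CT22. The same division into a high and a low set held, but CT14 now stood above CT10 and CT18 with no overlap. The fitted amplitude was 1.68 ± 0.19 (SE) in WT with a peak at CT13.6 ± 0.42 h (limma, adjusted p = 0.000644) and 1.29 ± 0.15 in ΔRRE with a peak at CT14.5 ± 0.45 h (adjusted p = 0.00192). From trough to peak these waves span 10.3-fold and 5.94-fold on the log2(FPKM + 0.1) scale. Its WT amplitude ranked 51 of the 11244 genes.

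The Wee1 values of the genotypes were farthest apart at the start of its high phase. At CT10 the ΔRRE mean was 3.11 FPKM against 6.50 in WT, 2.09-fold lower in ΔRRE, with no overlap between libraries. At CT18 the means were 3.18 and 4.44 FPKM, again without overlap, and at CT2 the ΔRRE libraries were the higher ones. The difference in the wave over all 12 libraries a group was not called (limma, unadjusted p = 0.128, exact permutation p = 0.0805, non-directional). The peak was 0.916 ± 0.617 h later in ΔRRE, a shift of the same order as its SE. Leaving out single WT libraries put the WT peak from CT13.1 (without CT6 replicate 2) to CT13.9 (without CT10 replicate 1). The level averaged over times differed by -0.22 on the log2 scale (95% interval -0.56 to 0.12, adjusted p = 0.749), so a mean 1.09-fold above WT and a mean 0.681 times WT both lie within the interval. The difference in level was -0.13 without WT CT6 replicate 1 or without WT CT10 replicate 1, and -0.05 without the 3 libraries named above.

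Cdkn1a, which encodes the CDK inhibitor p21, was high when Wee1 was mostly low. In WT its levels were 3.76 and 5.20 FPKM at CT2, 1.13 and 0.358 at CT6, 0.190 and 0.177 at CT10, 0.765 and 0.700 at CT14, 5.05 and 2.29 at CT18, and 3.09 and 8.74 at CT22. The 6 libraries of CT18, CT22 and CT2 all lay above the 6 others, CT10 lay below every other time point, and CT6 and CT14 overlapped. In ΔRRE its levels were 2.83 and 5.88 FPKM at CT2, 1.301 and 3.24 at CT6, 0.725 and 0.0641 at CT10, 4.02 and 2.51 at CT14, 8.96 and 2.77 at CT18, and 9.94 and 4.48 at CT22. CT10 was again lowest, but CT6 and CT14 reached into the range of CT2 and CT18. The amplitude was 2.19 ± 0.24 (SE) in WT, peaking at CT22.1 ± 0.41 h (limma, adjusted p = 0.000639), and 1.69 ± 0.40 in ΔRRE, peaking at CT21.4 ± 0.91 h (adjusted p = 0.0657). The WT wave spans 20.7-fold on the log2(FPKM + 0.1) scale and its amplitude ranked 21 of all genes. The trough is close to the added constant, and with 1 FPKM added instead the WT amplitude was 1.31. The ΔRRE wave missed the threshold. The joint fit passed it (limma, adjusted p = 0.00022), which a wave in WT alone can do.

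Cdkn1a stood higher in ΔRRE on both flanks of its trough. At CT14 the ΔRRE mean was 3.26 FPKM against 0.733 in WT, 4.45-fold higher, and at CT6 it was 2.27 against 0.746, 3.04-fold higher, each without overlap. The CT6 fold ran from 1.75 without ΔRRE replicate 2 to 6.34 without WT replicate 1. At the other 4 times the libraries overlapped. Averaged over times the level was 1.71-fold higher in ΔRRE, 0.78 ± 0.32 (SE) on the log2 scale, with a 95% interval of 1.08 to 2.71-fold. Its exact permutation p was 0.0415 (two-sided), the unadjusted limma p was 0.0236 and the adjusted p over all genes was 0.475, so the difference was not called. Without the 3 libraries named above it was 0.57 with an unadjusted p of 0.103. The difference in its wave was not called either (exact permutation p = 0.5, non-directional). It rested in part on ΔRRE CT10 replicate 2, at 0.0641 FPKM, since without this library the ΔRRE amplitude was 1.17 and the unadjusted limma p of the difference 0.0375.

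Ccnd1, the G1 cyclin, had the highest mean level of the 5 genes. In WT its levels were 4.18 and 5.34 FPKM at CT2, 21.4 and 6.68 at CT6, 16.0 and 10.5 at CT10, 12.8 and 6.04 at CT14, 3.93 and 6.97 at CT18, and 2.20 and 3.31 at CT22. CT10 lay above CT2, CT18 and CT22, CT22 lay below every other time point, and CT6, CT10 and CT14 overlapped. In ΔRRE its levels were 3.37 and 4.54 FPKM at CT2, 3.30 and 4.47 at CT6, 6.11 and 5.17 at CT10, 12.3 and 11.8 at CT14, 3.99 and 6.15 at CT18, and 2.31 and 4.02 at CT22. Here CT14 stood above every other time point, and CT10 above CT2, CT6 and CT22. The amplitude was 1.09 ± 0.20 (SE) in WT, peaking at CT9.7 ± 0.72 h (limma, adjusted p = 0.0144), and 0.75 ± 0.17 in ΔRRE, peaking at CT13.3 ± 0.86 h (adjusted p = 0.0543). The WT call was lost without CT10 (adjusted p = 0.0693), without CT22 (0.118), without the filter on low values (0.0813) and with time as a factor in place of the wave (0.139).

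The fitted peak of Ccnd1 was 3.56 ± 1.12 h later in ΔRRE. Without WT CT6 replicate 1 its WT peak moved from CT9.7 to CT10.5, closer to its ΔRRE peak at CT13.3. Leaving out any other single WT library gave a WT peak from CT9.3 to CT10.1, so some omissions widened the gap. The test of the difference in its wave had an unadjusted limma p of 0.0184 and an exact permutation p of 0.0372 (non-directional), and an adjusted p of 1 when rounded. At CT6 the ΔRRE mean was 3.88 FPKM against 14.1 in WT, 3.62-fold lower in ΔRRE (1.72-fold without WT CT6 replicate 1 and 5.52-fold without replicate 2), and at CT10 it was 5.64 against 13.3, 2.35-fold lower, both without overlap. At CT14 the means were 12.1 and 9.44 FPKM and the libraries overlapped. The highest value, 21.4 FPKM, belongs to WT CT6 replicate 1, the library highest in Kupffer, immediate-early and proliferation lists; their part in it was not tested. Without that library the WT wave was still called (amplitude 0.98, adjusted p = 0.00938) and the unadjusted p of the difference was 0.0615. The difference in level was -0.42 ± 0.23 (SE) on the log2 scale (adjusted p = 0.634, exact permutation p = 0.115, two-sided), and -0.25 without WT CT6 replicate 1.

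**Figure D2:**
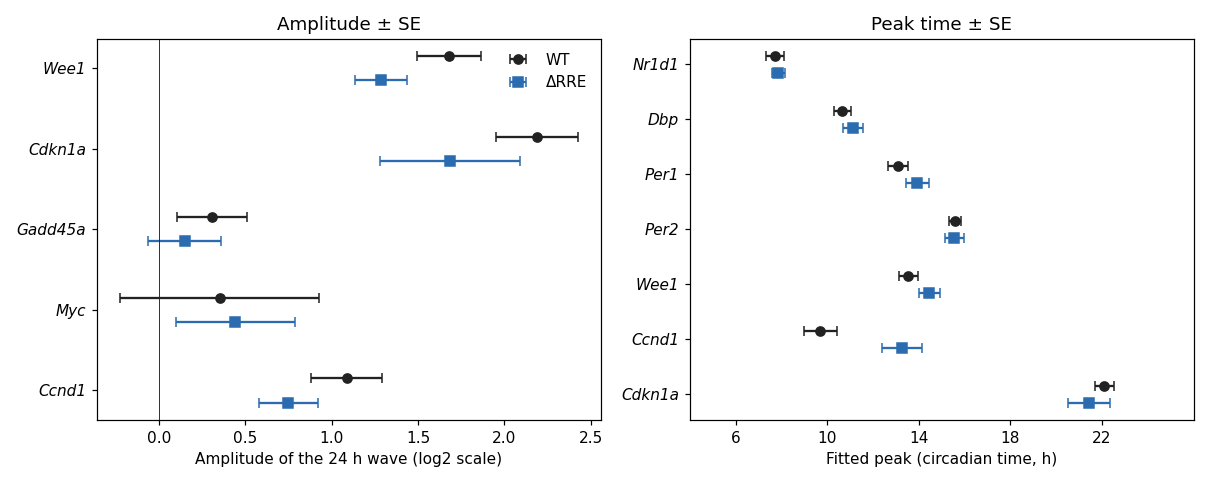
Left, fitted amplitude of the 24 h wave on the log2 scale with its SE for each of the 5 genes. Right, fitted peak in hours of circadian time with its SE for the 3 genes with a joint rhythm and 4 clock genes. Circles are WT and squares are ΔRRE. The peaks of Nr1d1, Dbp, Per1 and Per2 lie close together in the genotypes, and Ccnd1 has the widest gap, CT9.7 against CT13.3.

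The clock genes give a scale for these shifts. Nr1d1, which encodes REV-ERBα, peaked at CT7.7 in WT and CT7.9 in ΔRRE, a shift of 0.151 ± 0.477 h. The shift was 0.455 ± 0.573 h for Dbp, a D-box factor, 0.823 ± 0.663 h for Per1 and -0.0279 ± 0.484 h for Per2, both encoding clock repressors. Wee1 peaked between Per1 (CT13.1) and Per2 (CT15.6) in WT, and Cdkn1a close to Arntl (CT22.8).

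Gadd45a, the stress-induced binder of p21 and PCNA, was flat for most of the day in WT and stood apart at 2 time points. In WT its levels were 5.57 and 5.61 FPKM at CT2, 4.70 and 5.24 at CT6, 5.80 and 5.10 at CT10, 5.34 and 4.37 at CT14, 6.87 and 8.26 at CT18, and 1.94 and 2.50 at CT22. The highest and the lowest time points were thus neighbours, CT18 above and CT22 below every other WT library. In ΔRRE its levels were 3.68 and 5.56 FPKM at CT2, 5.25 and 3.12 at CT6, 3.41 and 1.45 at CT10, 5.04 and 4.34 at CT14, 2.65 and 2.75 at CT18, and 2.23 and 3.30 at CT22. No time point stood above or below all others there. A 24 h wave was not called in WT (amplitude 0.31 ± 0.20, SE; limma, adjusted p = 0.541) or ΔRRE (0.15 ± 0.21, adjusted p = 0.873). With time as a factor, which follows any profile over the 6 times, it was called in WT (adjusted p = 0.0115), where that fit called 361 genes, and had an adjusted p of 0.351 in ΔRRE.

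At CT18 Gadd45a had 2.70 FPKM in ΔRRE against 7.57 in WT, 2.80-fold lower in ΔRRE, and at CT10 it had 2.43 against 5.45, 2.25-fold lower (3.77-fold without ΔRRE CT10 replicate 1), both without overlap. At CT2 the ranges only just missed each other, with 5.56 FPKM as the highest ΔRRE value and 5.57 as the lowest in WT. Its level over all times was 1.42-fold lower in ΔRRE, a log2 difference of -0.51 ± 0.18 (SE) with a 95% interval of -0.88 to -0.13. The exact permutation p was 0.0203 (two-sided) and the unadjusted limma p 0.0103, but the adjusted p was 0.435. The genotype by time interaction had an unadjusted limma p of 0.00997, an adjusted p of 1 when rounded and an exact permutation p of 0.101 (non-directional). A difference in level can also move that permutation p. Leaving out CT18 took the log2 difference in level to -0.32.

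Myc, the growth-driving transcription factor, varied most between replicates. In WT its levels were 3.19 and 0.786 FPKM at CT2, 1.46 and 7.31 at CT6, 1.61 and 1.21 at CT10, 1.02 and 0.556 at CT14, 9.38 and 15.8 at CT18, and 0.529 and 1.29 at CT22. Both CT18 libraries lay above all 10 others, and the other time points mostly overlapped. In ΔRRE its levels were 2.11 and 1.35 FPKM at CT2, 2.78 and 4.17 at CT6, 1.27 and 2.65 at CT10, 8.17 and 1.81 at CT14, 2.24 and 7.68 at CT18, and 0.872 and 3.64 at CT22. The highest ΔRRE values at CT14 and CT18 each came from 1 of the 2 libraries. The wave was not called in WT (amplitude 0.35 ± 0.58, SE; limma, adjusted p = 0.902) or ΔRRE (0.44 ± 0.34, adjusted p = 0.664), and the adjusted p with time as a factor was 0.0884 in WT. At CT18 the ΔRRE mean was 4.96 FPKM against 12.6 in WT, 2.54-fold lower, and at CT14 it was 4.99 against 0.790, 6.32-fold higher, each without overlap. The CT18 fold was 1.64 without ΔRRE replicate 1 and 5.61 without ΔRRE replicate 2, and the CT14 fold was 2.29 and 10.3 without the same replicates of ΔRRE CT14. The CT14 value of 8.17 FPKM is from the library with the highest acute-phase, neutrophil and erythroid sums; their part in it was not tested. The level over all times differed by 0.37 ± 0.40 (SE) on the log2 scale (adjusted p = 0.86, exact permutation p = 0.416, two-sided), and by 0.13 without that library. It was 0.21 without WT CT14 replicate 2 or without ΔRRE CT22 replicate 2, and 0.58 without ΔRRE CT18 replicate 1.

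**Figure D3:**
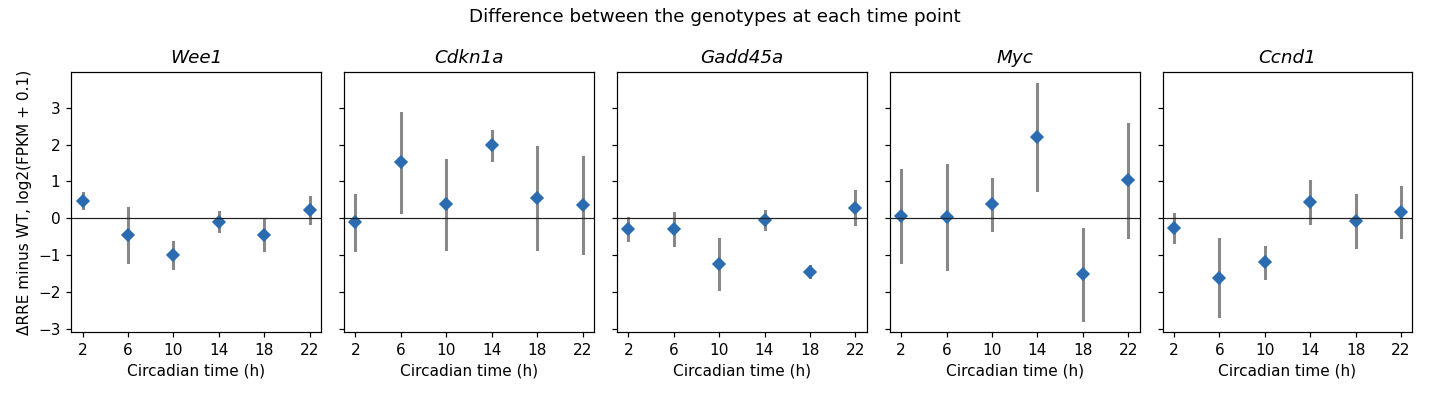
Difference in log2(FPKM + 0.1), ΔRRE minus WT, at each circadian time for the 5 genes. Diamonds are differences of means of 2 libraries and bars run from the smallest to the largest difference between single libraries, so a bar that misses 0 marks ranges without overlap. Wee1, Gadd45a and Ccnd1 lie below 0 at CT10, and Wee1, Gadd45a and Myc at CT18.

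Read by time, the ranges of the genotypes most often missed each other at CT10 and CT18. At CT10 Wee1, Gadd45a and Ccnd1 were lower in ΔRRE without overlap, 3 of 5 against 15.4% of all genes in that direction. At CT18 Wee1, Gadd45a and Myc were, 3 of 5 against 6.72%. At CT14 Cdkn1a and Myc were higher without overlap, 2 of 5 against 17.4%. At CT6 Cdkn1a was higher, 1 of 5 against 16.2%, and Ccnd1 lower, 1 of 5 against 11.8%. At CT2 Wee1 was higher, 1 of 5 against 18.6%, and Gadd45a lower, 1 of 5 against 10.9%. At CT22 all 5 overlapped. With 2 libraries a group these counts describe the libraries and are no test. The genes were chosen with such results known.

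No gene of the 5 was called in a test between the genotypes. For the level the count was 0 of 5, against 0% of all genes by limma at an adjusted p under 0.05; at an unadjusted p under 0.05 it was 2 of 5, Cdkn1a and Gadd45a, against 8.91% (1002 genes). For the wave it was 0 of 5 against 0.00889% adjusted, the background at an unadjusted p under 0.05 being 2.84% (319 genes), which Ccnd1 passed. For the genotype by time interaction it was 0 of 5 against 0.0356% adjusted and 3.31% (372 genes) unadjusted, which Gadd45a and Ccnd1 passed. The unadjusted limma p of Ccnd1 for it was 0.0466 and its exact permutation p 0.104, non-directional. The exact permutation tests used all 23328 distinct divisions of the libraries within time points, and the smallest p they can give is 4.287e-05. Their null is no genotype effect of any kind. For the wave and the interaction they thus do not set these apart from a difference in level.

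How far single libraries can carry these values follows from the replicate spread. The SD of log2(FPKM + 0.1) within a group was 0.357 for Wee1, 0.351 for Gadd45a, 0.532 for Ccnd1, 0.87 for Cdkn1a and 1.004 for Myc, against a median of 0.247 over all genes tested. All 5 were thus more variable than the typical gene, Cdkn1a and Myc the most. The median amplitude of the 5 was 1.09 in WT and 0.75 in ΔRRE, against 0.20 and 0.19 over all genes. The median difference in level was -0.22, against 0.04 over all genes. In ΔRRE the Wee1 wave was called whichever library was left out. Ccnd1 and Cdkn1a, not called with all libraries, lay close to the threshold, and Ccnd1 was called without ΔRRE CT2 replicate 2 or CT18 replicate 1, and Cdkn1a without ΔRRE CT6 replicate 2.

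The genes with the most similar profile were sought for each of the 5 by Pearson's r over the 24 libraries, as a description without a test. For Wee1 they were Gys2, the liver glycogen synthase (r = 0.922), Cdv3 (0.913) and Usp2, a rhythmic deubiquitinase (0.911). For Cdkn1a they were Chka, choline kinase alpha (0.892), Paxx, a factor of DNA end joining (0.877), and Lgalsl (0.872). For Ccnd1 they were A2ml1 (0.792), Slc20a1, a phosphate transporter (0.778), and Rnf145 (0.771). For Myc they were Gadd45g, a paralog of Gadd45a (0.765), Nme1, a nucleoside diphosphate kinase (0.728), and Vmp1 (0.705). For Gadd45a the values were lowest, with Rpl22l1 (0.688), Orai1, a calcium channel subunit (0.669), and C1qtnf1 (0.648). Among the 5 themselves Ccnd1 and Wee1 were closest (r = 0.635; 0.530 in WT and 0.823 in ΔRRE) and Ccnd1 and Cdkn1a most opposed (-0.519; -0.695 in WT and -0.198 in ΔRRE).

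The rest of the cell cycle machinery was mostly at low levels or was not called. Of 7 other cyclins 2 passed the filter, of 5 CDKs 4 did, and none of either had a joint rhythm. None of the 4 other genes that set CDK1 phosphorylation passed, although Wee1 itself did. Among CDK inhibitors 1 of 3 tested had a joint rhythm, Cdkn2c, which encodes p18 (amplitude 0.59 ± 0.16 in WT and 0.30 ± 0.13 in ΔRRE; limma, adjusted p = 0.0329). In the p53 pathway and checkpoint list 3 of 15 tested did, the stress kinase gene Plk3 (0.71 ± 0.17 in WT and 1.04 ± 0.23 in ΔRRE), the stress gene Sesn1 (0.43 ± 0.10 and 0.42 ± 0.14) and Trp53 itself (0.30 ± 0.08 and 0.21 ± 0.08). These waves are all shallower than that of Cdkn1a. That of Trp53 peaked at CT6.6 ± 0.97 h in WT and CT0.33 ± 1.44 h in ΔRRE, where it was not called by itself (limma, adjusted p = 0.241). Its difference in wave had an unadjusted limma p of 0.0078 and was not called.

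In the MYC network 1 of 8 tested had a joint rhythm, Max, the partner of MYC (adjusted p = 0.0481). Of the RB and E2F genes 2 of 8 did, Rbl2, a pocket protein (adjusted p = 0.00466), and E2f8, a repressor of E2F targets (0.00678), which peaked at CT20.2 in WT and CT21.4 in ΔRRE. Of the proliferation markers 9 of 18 passed the filter and 1, Rrm2, a subunit of ribonucleotide reductase, had a joint rhythm (adjusted p = 0.00153). The share over all genes was 18.7%, and no gene in any of them was called for a difference in level, rhythm or interaction.

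Lists of response genes were followed because such genes can move with the handling and state of an animal. A joint rhythm was called for 3 of 5 immediate-early genes tested, Egr1, Zfp36 and Junb, for 5 of 8 glucocorticoid and stress genes, among them Tsc22d3, Fkbp5 and Pdk4, and for 1 of 8 acute-phase genes, Crp. The median log2 difference in level was 0.63 for the acute-phase list and 0.25 for the glucocorticoid and stress list, against 0.04 over all genes, and no gene in them was called for level. All 8 clock reference genes had a joint rhythm. Taken per genotype, the wave was called for 8 of them in WT and 7 in ΔRRE, where Arntl was not called (limma, adjusted p = 0.156).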

How the data were processed

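The authors isolated poly(A) RNA from male mouse livers, prepared directional libraries and sequenced them as read pairs. The submitters' processing notes name Trimmomatic 0.39, HISAT2 2.1.0, StringTie 1.3.5 and mm10, with no role or order given. The authors deposited FPKM values per gene and library. These are not counts, so the depth behind each value is unknown and no counting interval was given. A merged table was not used.

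Samples were grouped by genotype and time from the labels. The 11244 genes whose mean reached 1 FPKM were analysed as log2(FPKM + 0.1). Linear models used limma 3.58.1 under R 4.3.3, the prior followed mean intensity, and p-values were adjusted over these genes by the Benjamini-Hochberg method. Fits were a 24 h cosine wave per genotype and jointly, its difference between the genotypes, the genotype term with time as a factor, and the genotype by time interaction. The study's rhythm program, BIO_CYCLE, was not run. The harmonic p under 0.3 took its place in the study's criteria, with a peak over 1.5 times the trough and the largest SD within 1.5 times their difference. Exact permutation tests were made for each of the 5 genes. Tested on simulated data of 11244 genes with 200 changed by 1 on the log2 scale, the fits found 94.5% of level changes, 79% of lost rhythms and 97% of joint rhythms. These rates are over genes of all spreads and do not carry to the 5 genes, which all vary more between replicates than the typical gene. With 200 genes changed, an adjusted p under 0.05 is also reached more easily. In the data 0 genes were called for level and 1 for a difference in rhythm. For those tests the rates thus overstate what would be found here.

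The genes and lists were chosen with earlier results of these data known. Beside the 5 genes, the text names up to 3 genes per list with the smallest joint rhythm p among those called, the 3 genes most like each of the 5, and Arntl, Nr1d1, Dbp, Per1 and Per2. Further marker and response genes were named for their zeros or their part in a sum after their values were seen. Alternatives were another constant, filter, scaling, prior or time model, a replicate block, and leaving out each library or time point in turn. Leaving out 3 libraries together was chosen after seeing the data.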

Additional observations from a re-analysis of the deposited data

How the results depend on the processing

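A filter at a mean of 5 FPKM leaves Ccnd1 as the only testable gene of the 5, and by that construction the counts were 1 rhythmic in WT, 0 rhythmic in ΔRRE, 1 jointly, and 1 in each genotype under the study's criteria. Otherwise the WT count stayed between 2 and 3. It was 2 (Wee1 and Cdkn1a) with no filter, without CT10 and without CT22, and with time as a factor it was 3 with Gadd45a in place of Ccnd1. In ΔRRE the count was 1, and 2 with a constant of 1 FPKM or a shared spread (Wee1 and Cdkn1a), and also 2 after rescaling by the median of ratios, with time as a factor or without CT2 (Wee1 and Ccnd1). Leaving out each library in turn gave 3 in WT and 1 to 2 in ΔRRE. Under the study's criteria the count was 5 in WT with time as a factor, without CT18 or without CT22, and 5 in ΔRRE without CT10; leaving out single libraries gave 3 to 4 in either genotype. The joint count was 3 and the counts for level, rhythm difference and interaction 0 in all other settings run. The difference in level of Myc was -0.00108 on the log2 scale without CT14. The cause of these changes was not tested.

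Replicate numbers were not used as pairs in the main fits. Correlations of deviations between same-numbered libraries of any 2 groups ran from -0.138 to 0.305 (median 0.0669, 66 pairs of groups, 20 of them over 0.1). Whether same-numbered libraries shared handling was not tested. With a replicate block the counts were 3 in WT, 1 in ΔRRE and 3 jointly, 3 and 3 under the study's criteria, and 0 for level, rhythm difference and interaction. FPKM without depth and 2 libraries a group limit what single time points can show.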
